A study of Mus musculus with 6 samples.

Results

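The genes described here are 36 members of the p53 and apoptosis pathways, listed by gene name, with earlier results of these data known. Of the 36, 33 had a probe set under their own symbol in the platform annotation, and the other 3 were not analysed here. Of the 33, 32 passed a filter on low values, which kept genes with a log2 value of 4 or more on 3 or more arrays. They are 32 of 14550 genes tested in all. The RNA was from sciatic nerves of mixed-strain mouse pups at postnatal day 2, when Schwann cells begin to make myelin. In 3 double knockout samples (dKO, genotype DhhCre+ HDAC1-2 dKO) the histone deacetylase genes Hdac1 and Hdac2 had been deleted in Schwann cells by a Cre recombinase under the control of the desert hedgehog (Dhh) gene, and the labels give peripheral hypomyelination as their disease state. The 3 control samples came from littermates labelled DhhCre–, and the labels do not say whether these pups carried floxed alleles. The nerves of all 6 samples had the perineurium, a sheath, removed, and 1 Affymetrix array (Mouse Genome 430 2.0) was used per sample. How many pups or nerves went into a sample is not stated, and the p-values rest on the spread among these samples alone. Values are log2 expression, means are given ± SD with n = 3 per group, and a change is the dKO mean less the control mean, with the standard error (SE) from the fit. Hdac1 was at 10.36 to 10.48 in control and 8.75 to 8.97 in dKO nerves, and Hdac2 at 12.33 to 12.34 and 10.81 to 11.22, so both targeted genes were lower on every dKO array (changes -1.55 and -1.26, limma adjusted p = 0.000271 and 0.00103). Of the other 2 Hdac2 probe sets, the brighter fell by 1.01 and the dimmer changed by 0.13 (adjusted p = 0.640), and with all 3 averaged the change was -0.71. Which exons were deleted is not stated in the labels.

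p53 is a transcription factor that is kept low by the ubiquitin ligase Mdm2 and that, after DNA damage or other stress, switches on genes for cell cycle arrest, repair, metabolism and death. Apoptosis can start at the cell surface, where death receptors such as Fas recruit and activate Casp8, or at mitochondria, where proapoptotic members of the Bcl2 family permeabilise the outer membrane and release factors that activate caspases. Antiapoptotic Bcl2 relatives hold the mitochondrial step in check, and inhibitor of apoptosis proteins hold the caspases. In peripheral nerve, Schwann cells of the perinatal period depend on signals from axons and from each other for survival.

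Of the 32 tested members, 10 rose in dKO nerves at an adjusted p under 0.05 and 0 fell, in limma's moderated test with Benjamini-Hochberg adjustment over all 14550 genes. Over all genes tested, 12.6% rose and 9.38% fell by this rule, 22.0% in all. The members that rose were Sesn2, Zmat3, Plk2 and Trp53inp1 among p53 targets of arrest, repair and stress, the receptor gene Eda2r, the death receptor genes Fas, Casp8 and Bid, and the mitochondrial pathway genes Apaf1 and Diablo. They made up 31.2% of the tested members. At an unadjusted p under 0.05, 12 members were higher and 3 lower. The share of all genes at this unadjusted limit was not computed, so this and the like counts below have no background beside them. The rise was at least 2-fold for 5 members (Eda2r, Sesn2, Bid, Zmat3 and Fas), where 6.02% of all genes passed both limits. The median log2 change was 0.20 over the members and 0.01 over all genes tested. All dKO values lay above all control values for 13 members and below them for 4, against 22.6% and 18.4% of all genes, or 40.9% in either direction. The RNA was of the whole nerve sample, so fewer or more cells of a type and less or more RNA per cell cannot be told apart.

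**Figure D1:**
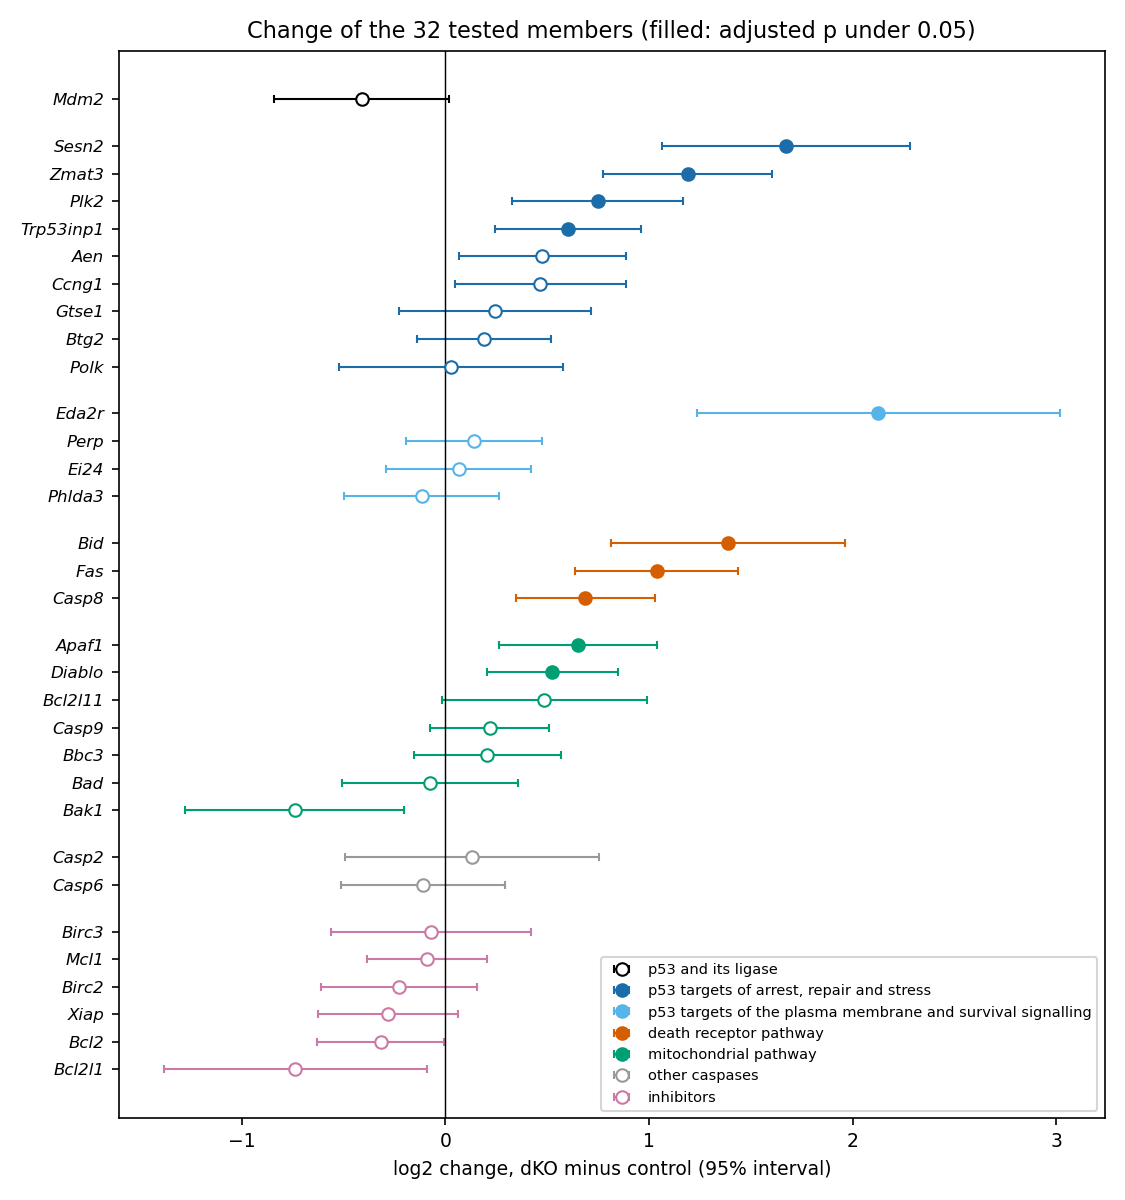
Log2 change (dKO minus control, horizontal axis) of each of the 32 tested members, with its 95% interval from limma, grouped by role, filled symbols marking an adjusted p under 0.05. The filled symbols are 10 members to the right of 0, from Diablo at 0.53 to Eda2r at 2.13. All 6 inhibitor genes lie to the left of 0 with open symbols. However, Mcl1 turns to 0.03 with its probe sets averaged, and Birc3 to 0.12 without control 1.

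Of the 16 tested p53 targets among the members, counted across the roles, 6 rose (37.5%) and 0 fell, and the median change was 0.36. Over all genes tested, 12.6% rose and 9.38% fell. Cdkn1a and Rrm2b, which are p53-induced but not members, fell (changes -2.21 and -1.08). A change above 0 was fitted for 14 of the 16, and for 7360 of all 14550 genes. Of the 14, Polk and Ei24 turned negative with arrays centred on their medians and in some fits with an array left out. Leaving out an array gave 4 to 7 that rose. The promoters of 5 of these genes are given here, because they set targets with a sequence match to the p53 motif beside targets that rose without one. Each is a RefSeq window of 300 bases (GRCm38.p6), from 250 bases before to 50 after a gene start, written 5′ to 3′. The windows are Ccng1 at chr11:40755237-40755536 (minus strand), Aen at chr7:78895677-78895976 (plus strand), Mdm2 at chr10:117710709-117711008 (minus strand), Eda2r at chrX:97377160-97377459 (minus strand) and Fas at chr19:34290409-34290708 (plus strand). Capitals mark an exact match to the p53 decamer consensus, the unit that occurs as a pair in a p53 response element and whose consensus is the same on both strands.
Ccng1: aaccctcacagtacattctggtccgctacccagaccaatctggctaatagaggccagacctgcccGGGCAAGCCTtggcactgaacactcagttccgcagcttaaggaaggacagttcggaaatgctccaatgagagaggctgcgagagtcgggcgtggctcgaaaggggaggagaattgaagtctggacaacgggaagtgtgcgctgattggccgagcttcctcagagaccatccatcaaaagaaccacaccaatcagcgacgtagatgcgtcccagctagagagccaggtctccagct
Aen: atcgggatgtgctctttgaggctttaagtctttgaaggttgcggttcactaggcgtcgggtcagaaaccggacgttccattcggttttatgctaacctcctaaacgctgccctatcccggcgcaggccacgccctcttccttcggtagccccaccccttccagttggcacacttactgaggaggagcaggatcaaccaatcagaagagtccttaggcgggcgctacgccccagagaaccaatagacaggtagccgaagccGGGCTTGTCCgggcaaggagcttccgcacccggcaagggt
Mdm2: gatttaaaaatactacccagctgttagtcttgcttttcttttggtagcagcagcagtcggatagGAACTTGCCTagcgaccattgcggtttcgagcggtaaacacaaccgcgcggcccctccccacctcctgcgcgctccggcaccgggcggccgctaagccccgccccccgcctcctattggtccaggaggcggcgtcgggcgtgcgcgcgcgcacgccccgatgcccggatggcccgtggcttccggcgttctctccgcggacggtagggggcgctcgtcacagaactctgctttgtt
Eda2r: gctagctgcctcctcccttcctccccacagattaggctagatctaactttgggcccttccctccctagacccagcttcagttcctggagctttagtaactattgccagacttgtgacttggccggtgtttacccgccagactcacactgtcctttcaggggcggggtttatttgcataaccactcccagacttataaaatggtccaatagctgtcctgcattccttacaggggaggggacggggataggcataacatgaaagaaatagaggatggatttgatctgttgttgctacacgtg
Fas: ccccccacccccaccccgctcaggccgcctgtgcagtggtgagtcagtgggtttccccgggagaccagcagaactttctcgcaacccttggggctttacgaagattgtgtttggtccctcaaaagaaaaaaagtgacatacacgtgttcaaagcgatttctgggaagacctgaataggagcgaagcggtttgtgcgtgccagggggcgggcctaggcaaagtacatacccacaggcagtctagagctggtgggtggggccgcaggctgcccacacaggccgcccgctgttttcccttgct

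The decamer stood at bases 66 to 75 of the Ccng1 window (GGGCAAGCCT), 261 to 270 of the Aen window (GGGCTTGTCC) and 65 to 74 of the Mdm2 window (GAACTTGCCT), and in neither the Eda2r nor the Fas window. A match is a string of letters and was not tested as a binding site, and its absence from this window says nothing of other positions. In the table, 8.36% of all 32851 windows and 9.55% of 27025 genes held a match. Of the 13 tested p53 targets with a window, 6 held one (Ccng1, Aen, Mdm2, Gtse1, Ei24 and Polk), against 1 of the 16 other tested members with a window (Birc2). The 4 targets with a window that rose (Sesn2, Plk2, Eda2r and Fas) held none, and the 6 with a match were among the 9 that did not pass. Of the 6, Ccng1 and Aen had probe sets called higher other than the one used.

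Mdm2, the ligase that degrades p53 and is itself a p53 target, did not pass the test. It read 10.44, 9.78 and 9.96 in control and 9.59, 9.63 and 9.73 in dKO nerves, with every dKO value lower. The change was -0.41 (SE 0.19, adjusted p = 0.163), its 95% interval ran from -0.84 to 0.02, and the other 2 probe sets changed by -0.45 (adjusted p = 0.0785) and -0.04 (adjusted p = 0.958).

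Of the 9 tested p53 targets of arrest, repair and stress, 4 rose (44.4%, against 12.6% of all genes). All 9 had a change above 0 (median 0.48), as had 7360 of all 14550 genes. Polk turned negative with arrays centred, and without control 2, control 3, dKO 1 or dKO 2. Without control 2 or dKO 2, 2 of the 9 rose. Sesn2, a stress-induced regulator of metabolism and redox state, read 6.003, 5.154 and 5.638 in control and 6.877, 7.265 and 7.667 in dKO nerves. The groups stood apart, and the change was 1.67 (SE 0.26, adjusted p = 0.00324), or 3.19-fold. Its other probe set changed by 0.46 (adjusted p = 0.187), and the mean of both by 1.07. Sesn2 is also a target of the stress factor Atf4. Of 14 tested genes of an Atf4 list 2 rose (14.3%, against 12.6% of all genes), Vldlr (1.34) and Ddit4 (1.25). Atf4 itself changed by -0.17 and its target Ddit3 by 0.01. Whether Atf4 had a part in the rise of Sesn2 was not tested. Zmat3, an RNA-binding protein, went from 7.72, 7.83 and 7.32 to 8.97, 8.60 and 8.87, a change of 1.19 (SE 0.18, adjusted p = 0.00270). Both calls held with each array left out.

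Plk2, a kinase of centriole duplication and stress response, read 10.14, 10.13 and 9.81 in control and 10.51, 10.75 and 11.06 in dKO nerves. No values overlapped, and the change was 0.75 (SE 0.18, adjusted p = 0.0215). Leaving out control 2, control 3 or dKO 2 ended this call (adjusted p at most 0.0708), as did averaging with its second probe set, which was under the limit on all arrays (0.34, adjusted p = 0.128). Trp53inp1, which promotes p53 activity and autophagy, went from 9.81, 10.10 and 10.22 to 10.62, 10.76 and 10.55. Its change was 0.60 (SE 0.16, adjusted p = 0.0275), and the threshold was missed with control 1, control 2, dKO 1 or dKO 2 left out (adjusted p at most 0.0958), with arrays centred on their medians and with its probe sets averaged. Ccng1, which encodes cyclin G1 and acts back on Mdm2, read 10.87, 10.63 and 10.79 in control and 11.23, 11.54 and 10.92 in dKO nerves. It missed the threshold (0.47, SE 0.18, adjusted p = 0.110), while its other 2 probe sets rose by 0.96 (adjusted p = 0.00740) and 0.80 (adjusted p = 0.0213), and without dKO 3 it passed (0.62, adjusted p = 0.0361). With probe sets averaged it also rose (0.74, adjusted p = 0.00392). Aen, a nuclease that acts in apoptosis, changed by 0.48 (SE 0.18, adjusted p = 0.0972) with no overlap, while 1 of its 4 probe sets rose (0.78, adjusted p = 0.0179), as did their mean (0.51, adjusted p = 0.0153).

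The remaining genes of this group changed less. Gtse1, which is made in G2 phase and restrains p53, changed by 0.24 (95% interval -0.23 to 0.72). Of 15 tested proliferation genes 2 rose, Nusap1 (0.61) and Ccnb2 (0.49), or 13.3% against 12.6% of all genes. Neither of those calls held without control 2 or control 3, and Ccnb2 passed only without dKO 3 among the fits with 1 array left out. With probe sets averaged Nusap1 changed by 0.20 and did not pass. Btg2, an antiproliferative gene that is also an immediate-early gene, changed by 0.19 (95% interval -0.14 to 0.52). Of 12 immediate-early genes 3 rose (Ier3, Egr1 and Ier2, by 1.51, 1.35 and 0.76) and Egr2 fell by 1.74. These were 25% and 8.33%, against 12.6% and 9.38% of all genes. Polk, a DNA polymerase that copies past damaged bases, changed by 0.03 (95% interval -0.52 to 0.58).

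Eda2r, a receptor of the tumour necrosis factor receptor family that binds an isoform of ectodysplasin, had the highest fitted change of the 32 members. It read 5.64, 4.32 and 3.97 in control and 6.52, 7.01 and 6.76 in dKO nerves. Control 1 stood above the other control arrays but below all dKO arrays. The change was 2.13 (SE 0.39, adjusted p = 0.00617), and 4.33-fold with the value under the limit set to 4. The call held with each array left out, with changes from 1.79 to 2.62. Eda2r lies on the X chromosome, and the arrays differed in Xist, the RNA of the inactive X (11.24 to 11.67 on control 2, dKO 2 and dKO 3, and 4.14 to 5.31 on the others). Among the arrays with low Xist, Eda2r was 5.64 and 3.97 in control and 6.52 in dKO nerves. Among those with high Xist it was 4.32 in control and 7.01 and 6.76 in dKO nerves. High Xist was thus more frequent among dKO than among control arrays, and no fit had a term for it.

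The other membrane and survival targets showed no change past the threshold. Perp, a desmosomal membrane protein that promotes p53-dependent death, read 4.71 ± 0.17 in control and 4.85 ± 0.08 in dKO nerves, near the low-value limit. Phlda3, a repressor of Akt signalling, changed by -0.12 (95% interval -0.50 to 0.26). Ei24, a protein of the endoplasmic reticulum, changed by 0.07 (95% interval -0.29 to 0.42), and by -0.01 when arrays were centred. Over all 22 members that did not pass, the 95% interval of the change lay within -1 to 1 for 20, and excluded 0 for 5.

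The 3 members placed in the death receptor pathway, Fas, Casp8 and Bid, rose, against 12.6% of all genes. Other genes of that pathway did not all do so: Fadd, the adaptor between Fas and Casp8, changed by 0.09 (adjusted p = 0.763), the receptor gene Tnfrsf21 by -0.06 and Daxx, which binds Fas, by 0.11, and these 3 did not pass. Fas, the receptor that triggers apoptosis when bound by its ligand, had values of 4.34, 4.36 and 4.27 on the control arrays and 5.08, 5.68 and 5.32 on the dKO arrays. Every dKO value lay above every control value, and the control values stood close to the low-value limit of 4. The change was 1.04 (SE 0.17, adjusted p = 0.00421), a 2.06-fold rise on its single probe set. Casp8, the initiator caspase that Fas recruits, read 7.23, 7.40 and 7.60 in control and 8.02, 8.11 and 8.16 in dKO nerves. The groups did not overlap, and the change was 0.69 (SE 0.15, adjusted p = 0.0128), or 1.61-fold. Bid, which is cleaved by Casp8 and carries the signal to mitochondria, went from 4.92, 4.44 and 4.40 to 5.46, 6.29 and 6.18. dKO 1 was the lowest dKO array for all 3 genes. The change of Bid was 1.39 (SE 0.25, adjusted p = 0.00580), or 2.61-fold, while its second probe set above the limit changed by 0.40 (adjusted p = 0.0889 over all probe sets). With probe sets averaged, 1 under the limit included, Bid rose by 0.72. All 3 calls held with each array left out in turn, with a highest adjusted p of 0.0175 for Fas, 0.0475 for Casp8 and 0.0260 for Bid.

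Markers of macrophages were higher in the same samples. Of 13 macrophage markers, 4 rose (30.8%, against 12.6% of all genes). The log2 of the summed level of all 13 ran from 11.66 to 11.89 in control and from 12.23 to 13.40 in dKO nerves. The complement genes C1qc and C1qa rose by 1.13 and 0.84, the cytoskeletal gene Aif1 by 1.06 and the adaptor gene Tyrobp by 0.92. The number of markers called ran from 1 to 5 with an array left out, with 1 called without control 2 or control 3. On dKO 1, dKO 2 and dKO 3 the macrophage level was 12.23, 12.28 and 13.40, each above all control arrays. Fas and Bid were highest on dKO 2 and Casp8 on dKO 3. Without dKO 3 the changes were 1.06 for Fas, 0.65 for Casp8 and 1.28 for Bid. In that fit 5 of the 13 macrophage markers rose. Of the T, B and mast cell markers 0 of 6 tested passed limma's test, with 1 lower at an unadjusted p under 0.05, and the T cell gene Cd3e and the B cell gene Ms4a1 were under the limit of 4 on all arrays. The part of macrophages in the rise of these 3 genes was not tested.

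**Figure D2:**
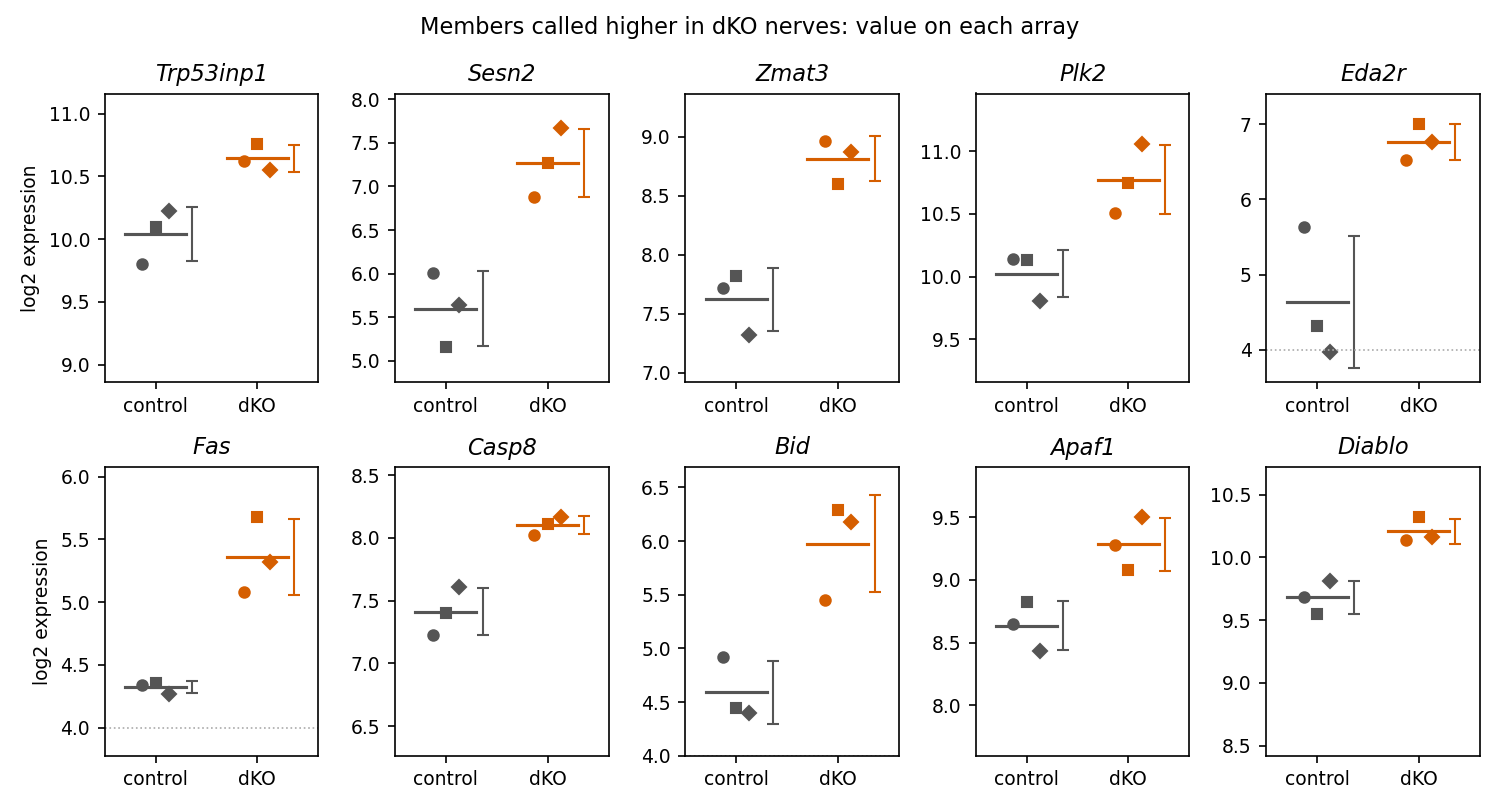
Log2 expression (vertical axis, its range differs between panels) of the 10 members that rose, on each of 3 control and 3 dKO arrays (circle, square and diamond for replicates 1, 2 and 3), with the group mean as a line, the SD as a bar and the low-value limit of 4 dotted. In each panel the dKO values lie above all control values, and Eda2r has 1 control value just under the limit.

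The 7 tested genes of the mitochondrial pathway had a median log2 change of 0.22. Of these, 2 rose (28.6%, against 12.6% of all genes) and 0 fell (against 9.38%). Both calls were lost without control 1 or without dKO 1. Apaf1, the scaffold of the apoptosome that activates Casp9, read 8.65, 8.82 and 8.43 in control and 9.28, 9.08 and 9.50 in dKO nerves, with no overlap. Its change was 0.65 (SE 0.17, adjusted p = 0.0275), and it also lost its call when control 3 or dKO 3 was left out (adjusted p at most 0.0923 over the arrays). Diablo, which encodes Smac, a mitochondrial protein that releases caspases from their inhibitors, went from 9.68, 9.55 and 9.82 to 10.14, 10.32 and 10.16. Its values did not overlap either, and the change was 0.53 (SE 0.14, adjusted p = 0.0307). It lost its call without control 2 or dKO 2 too (adjusted p at most 0.110 over the arrays), and when arrays were centred on their medians. Casp9, the initiator caspase of the apoptosome, changed by 0.22 (95% interval -0.08 to 0.51, adjusted p = 0.270). Its groups did not overlap, but its second probe set changed by -0.17 and the mean of its probe sets by -0.05.

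The Bcl2 family genes that promote death did not share a direction. Bak1, an effector that forms pores in the outer membrane, read 8.92, 7.99 and 8.27 in control and 7.54, 7.66 and 7.76 in dKO nerves. All dKO values were lower, the change was -0.74 (SE 0.23, adjusted p = 0.0565), and it passed without control 2 (-0.94, adjusted p = 0.0332) and with arrays centred on their medians. Bcl2l11, which encodes the sensor Bim, was at 9.78 ± 0.21 in control and 10.26 ± 0.40 in dKO nerves, and dKO 3 (9.80) lay within the control range. Its change was 0.49 (SE 0.22, adjusted p = 0.159), and without dKO 3 it was 0.71 (adjusted p = 0.0253). All 5 of its probe sets had a change above 0, 1 of them rose (0.87, adjusted p = 0.0308), and with probe sets averaged the gene was called higher (0.52, adjusted p = 0.0175). Bbc3, which encodes the p53-induced sensor Puma, changed by 0.21 (95% interval -0.15 to 0.57), and Bad, a sensor controlled by survival kinases, by -0.07 (95% interval -0.51 to 0.36). Pmaip1, which encodes the sensor Noxa, was under the limit of 4 on all 6 arrays (2.64 to 3.08) and was not tested.

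None of the 6 inhibitor genes passed limma's test. All 6 had a fitted change below 0 (median -0.25), as had 7190 of all 14550 genes tested. Mcl1 turned positive with probe sets averaged, and Birc3 without control 1, dKO 1 or dKO 2. At an unadjusted p under 0.05, 2 of the 6 were lower. Bcl2l1, which encodes the antiapoptotic protein Bcl-xL, read 6.22, 6.93 and 7.31 in control and 5.75, 6.28 and 6.22 in dKO nerves. The groups overlapped, because control 1 lay under dKO 2, and the change was -0.74 (SE 0.28, adjusted p = 0.102). Without control 1 it was -1.04 (adjusted p = 0.0188). The other 2 Bcl2l1 probe sets above the limit both fell, by 1.45 (adjusted p = 0.00601) and by 0.56 (adjusted p = 0.0402), and with all its probe sets averaged the gene was called lower. Bcl2 itself read 10.83, 10.70 and 10.66 in control and 10.49, 10.46 and 10.29 in dKO nerves. Its values did not overlap, and the change was -0.32 (SE 0.14, adjusted p = 0.140). Its 5 probe sets changed by -0.80 to -0.21, and 0 of them passed.

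Mcl1, a short-lived antiapoptotic Bcl2 relative, differed little between the groups (11.84 ± 0.08 and 11.75 ± 0.05), and the 95% interval of its change ran from -0.39 to 0.21. The mean of its 6 probe sets changed by 0.03. Xiap, the inhibitor that binds caspases directly, changed by -0.28 (SE 0.15, adjusted p = 0.228). Its 7 probe sets spread from -1.20 to 0.61, and with all of them averaged Xiap was called lower. Birc2 and Birc3, ubiquitin ligases of the inhibitor of apoptosis family that act in death receptor signalling, changed by -0.23 (95% interval -0.61 to 0.15) and -0.07 (95% interval -0.56 to 0.42). The change of Birc3 turned positive without control 1, dKO 1 or dKO 2 (0.12 at most). The remaining caspases, Casp2, which acts upstream of mitochondria, and the effector Casp6, changed by 0.13 (95% interval -0.49 to 0.75) and -0.11 (95% interval -0.51 to 0.29).

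**Figure D3:**
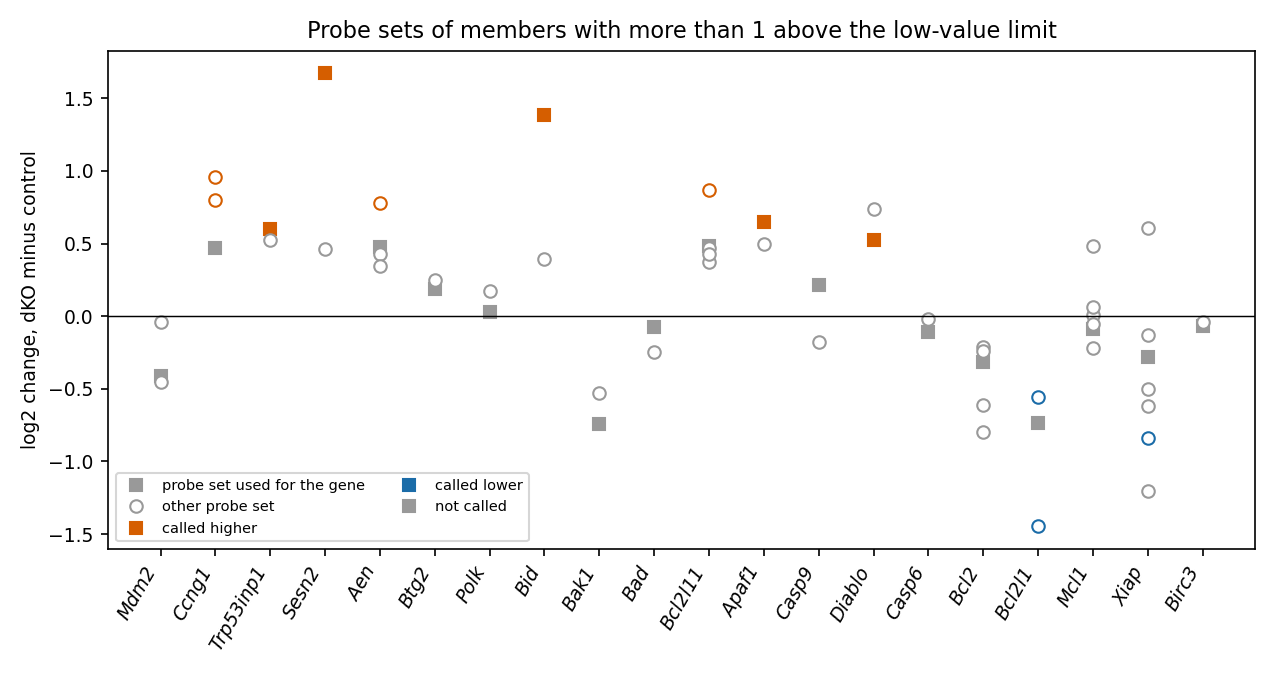
Log2 change (dKO minus control, vertical axis) of every probe set above the low-value limit for the 20 members with more than 1 such probe set, squares for the probe set used for the gene and circles for the others, coloured by the call over all probe sets. Ccng1, Aen and Bcl2l11 have called probe sets above 0 other than the one used, and Bcl2l1 and Xiap have called ones below 0.

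**Figure D4:**
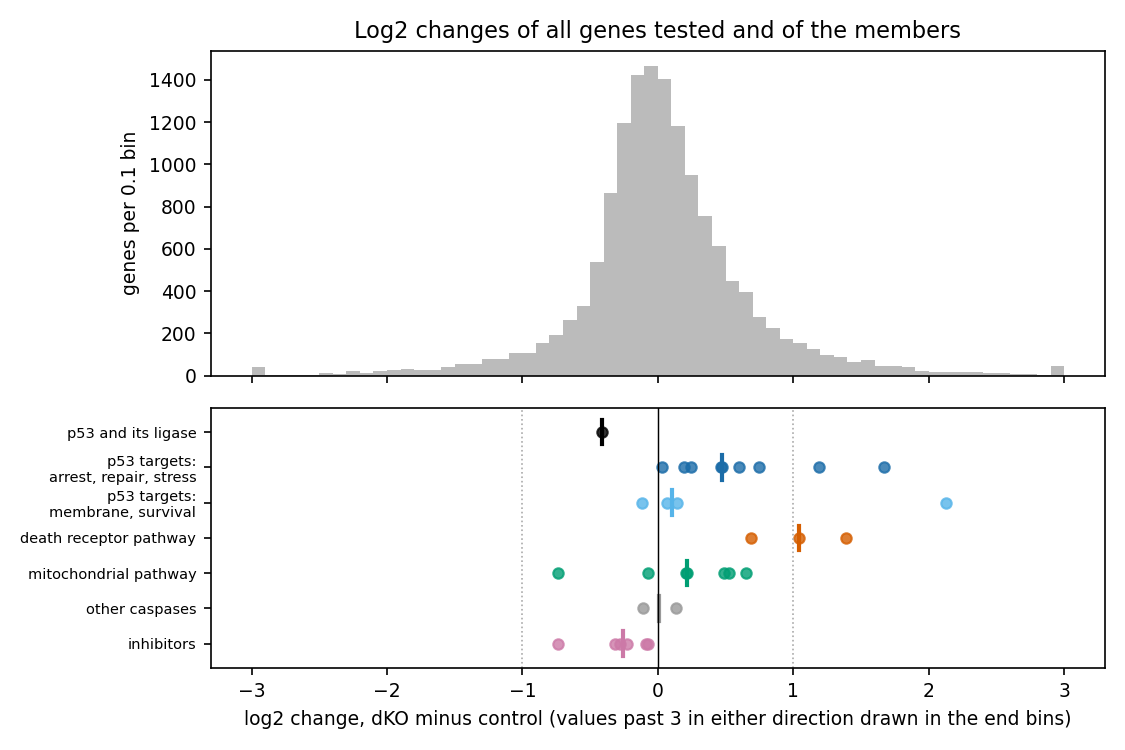
Above, a histogram of the log2 changes (dKO minus control) of all 14550 genes tested, in bins of 0.1, with changes beyond -3 or 3 in the end bins. Below, the 32 members by role on the same axis, with a bar at each group's median and dotted lines at a 2-fold change: the death receptor genes have a median of 1.04 and the inhibitors of -0.25, while the median of all genes is 0.01.

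The arrays of a group did not agree equally on the members. dKO 1 had the lowest value of its group for 18 of the 32 members and for 7 of the 10 that rose, and dKO 2 had the highest for 17 and 5. In control nerves, control 1 had the highest value for 17 of the 32. The median over the members, relative to their control means, was 0.12 on dKO 1, 0.30 on dKO 2 and 0.20 on dKO 3, against -0.05 to 0.09 on the control arrays. The median over the 3 death receptor genes was 0.759, 1.36 and 1.003 on the same dKO arrays.

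Other genes of both pathways moved in both directions. Of 31 other p53 pathway genes tested, 7 rose and 3 fell (22.6% and 9.68%, against 12.6% and 9.38% of all genes), with a median of 0.10. Without dKO 1, 4 rose. Cdkn1a, which encodes the p53-induced cell cycle inhibitor p21, read 12.20, 11.30 and 11.73 in control and 9.30, 9.94 and 9.38 in dKO nerves. No values overlapped, and the gene fell by 2.21 (SE 0.26, adjusted p = 0.000879), opposite in sign to the 6 p53 targets that rose. Rrm2b, the p53-induced subunit of ribonucleotide reductase, fell by 1.08 (SE 0.18, adjusted p = 0.00434). Mdm4, the p53-binding relative of Mdm2, fell by 0.60 (adjusted p = 0.0324), but did not pass with any control array, dKO 2 or dKO 3 left out (adjusted p at most 0.102). Trp53i11 had 1 control value under the limit and was 4.83-fold higher with that value set to 4 (adjusted p = 0.000552). Ephx1, an epoxide hydrolase of detoxification, rose by 1.75 (SE 0.16, adjusted p = 0.000295). The others that rose were Xpc (0.85), Dram1 (0.82), Chek2 (0.73), Chek1 (0.69) and Trp53bp1 (0.61). Dram1 and Chek2 kept their calls with each array left out, while Xpc, Chek1 and Trp53bp1 each passed in 2 of these fits. Tnfrsf10b, a death receptor for the ligand Trail, read 3.99, 6.58 and 3.81 in control and 5.81, 7.47 and 7.44 in dKO nerves, and its change of 2.11 (SE 0.74, adjusted p = 0.0805) did not pass.

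Of 26 other apoptosis genes tested, 5 rose and 3 fell (19.2% and 11.5%, against 12.6% and 9.38% of all genes), with a median of 0.12. With an array left out, 2 to 5 of them rose, 2 without any control array and 3 without dKO 2. Bcl2l2, an antiapoptotic Bcl2 relative, read 9.59, 9.96 and 9.42 in control and 8.76, 8.82 and 8.16 in dKO nerves, and fell by 1.08 (SE 0.22, adjusted p = 0.0105). Cflar, which encodes the inhibitor of Casp8 called c-FLIP, fell by 1.02 (SE 0.31, adjusted p = 0.0458), and missed the threshold when control 1, control 2, dKO 1 or dKO 2 was left out (adjusted p at most 0.140). With probe sets averaged, Bcl2l2 fell by 0.46 and Cflar by 0.48, and both passed. Bnip3, a mitochondrial protein of hypoxia and mitophagy, fell by 1.32 (SE 0.18, adjusted p = 0.00163). Ngfr, the neurotrophin receptor of immature Schwann cells that can signal death, rose from 9.56 ± 0.13 to 10.56 ± 0.25 (change 1.004, SE 0.17, adjusted p = 0.00419). The other 4 that rose, named because they were few, were the death receptor gene Tnfrsf1a (0.85, adjusted p = 0.00368), its adaptor Tradd (0.92), the nuclease gene Endog (0.95) and the cochaperone gene Bag1 (0.50). The last 3 calls were each lost without any control array (adjusted p at most 0.112 for the 3), as also without dKO 2 for Tradd and without dKO 1 or dKO 2 for Bag1. With probe sets averaged, Tradd changed by 0.38 (adjusted p = 0.182) and Endog by 0.61 (adjusted p = 0.0553).

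**Figure D5:**
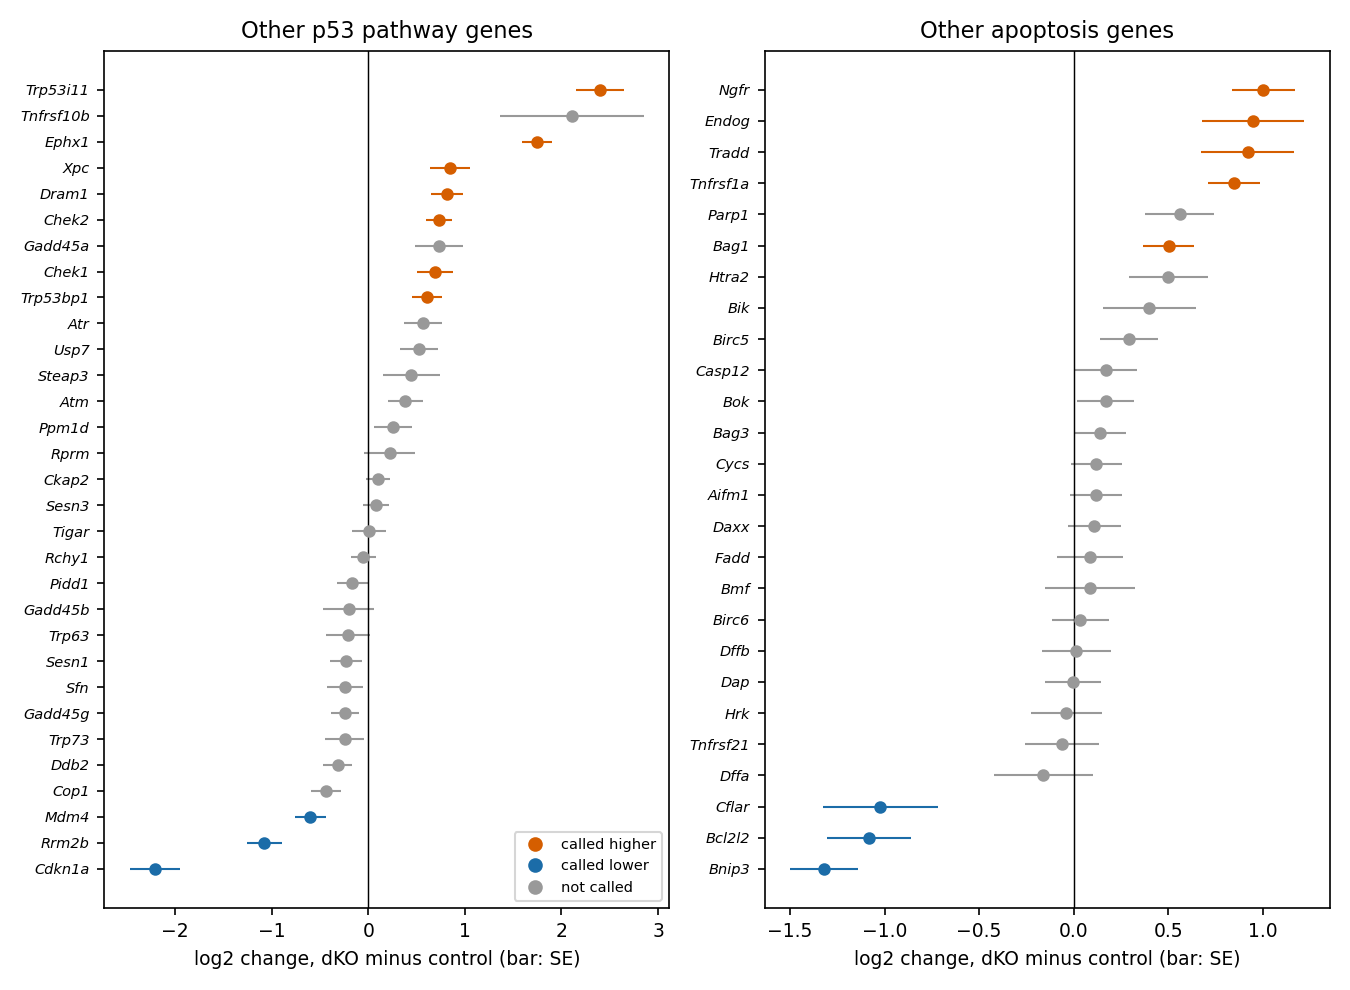
Log2 change (dKO minus control, horizontal axis, bar for the SE) of 31 other p53 pathway genes on the left and 26 other apoptosis genes on the right, orange for genes that rose, blue for genes that fell and grey for the rest. Cdkn1a has the lowest change on the left, at -2.21, and Bnip3 on the right, at -1.32.

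Markers of the cells of the nerve also differed between the groups. Of all genes tested, 12.6% rose and 9.38% fell. Of 9 Schwann cell markers tested, 4 fell (Pmp22, Erbb3, S100b and Gas7, with changes of -1.67, -1.33, -1.33 and -1.21) and Fabp7 rose by 1.95. The log2 of the summed level of the 9 was 14.96 to 15.03 in control and 13.78 to 14.35 in dKO nerves. Pmp22 was the brightest of the 9 in control nerves (14.04), so this sum leans on it. The lineage factor Sox10 was at 10.68 in control nerves and changed by -0.36, which did not pass. Cdh19, Foxd3 and Ednrb changed by -0.55, 0.46 and 0.01, and did not pass either. Of 9 fibroblast markers 6 rose, led by Dpt and Mfap5, with summed levels of 15.28 to 15.40 and 15.51 to 15.58. With an array left out, 3 to 6 of them rose, 3 without control 2 or dKO 2. Dpt had 2 control values under the low-value limit, and was 7.46-fold higher with these set to 4. The collagen genes Col1a1, Col3a1 and Col1a2, the brightest of the 9, changed by 0.12, 0.11 and -0.03 and did not pass. Of the other markers, 3 of 8 pericyte, 2 of 7 perineurial, 2 of 10 neuronal, 1 of 7 muscle and 1 of 2 adipocyte genes rose, and 1 perineurial and 1 neuronal gene fell. With limma 0 of 10 endothelial genes passed, and 3 were higher at an unadjusted p under 0.05. With an array left out, 1 to 2 perineurial genes rose (1 without control 2 or dKO 2). The muscle gene Mylpf passed only without dKO 1 and the perineurial gene Itgb4, which fell, only without control 1, among these fits, and the pericyte gene Rgs5 passed in 0 of 6. The part of such shifts in the changes of the members was not tested.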

How the data were processed

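Per the labels' protocols, total RNA was labelled with biotin and read on 6 arrays (Affymetrix Mouse Genome 430 2.0). The submitters' processing notes name GCOS 1.2 and GCRMA, with no settings. The authors deposited log2 expression for each probe set (1.66 to 14.94; that the scale is log2 was read from the values). At every rank the arrays agree to within 0.01, so an even shift of all genes cannot be detected. Sample titles gave groups and replicate numbers. Whether these numbers pair the samples is not known, and the main fit treated the samples as unpaired.

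Of 45101 probe sets, 932 with several gene symbols were left out and 34958 carried a single one, updated by gene ID against RefSeq (GRCm38.p6; 34754 found). The probe set with the highest mean over the 6 arrays stood for its gene. Of 18194 genes, 14550 passed the filter. limma 3.58.1 in R 4.3.3 (lmFit, eBayes, no covariates, two-sided) compared the groups, with a threshold of 0.05 on Benjamini-Hochberg adjusted p. Single probe sets were fitted apart, with adjustment over 34958. The fit was tested on simulated data. A log2 change had a median SE of 0.17, and the number of arrays limits the precision.

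The rule named all measured members, Hdac1, Hdac2, Cdkn1a, Xist, defining cell markers and at most 4 called genes from each of 15 other lists. Mdm4, Tnfrsf10b, Xpc, Dram1, Chek2, Chek1, Trp53bp1, Tnfrsf1a, Tradd, Endog, Bag1, Fadd, Tnfrsf21, Daxx, Atf4 and Ddit3 were added after their values were seen. Members and lists were chosen with earlier results of these data known.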

Additional observations from a re-analysis of the deposited data

How the results depend on the processing

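Alternatives were an intensity trend, a robust prior, averaged probe sets, no filter, a low-value limit of 6, arrays centred on their medians, a replicate block and each array left out. The calls of Sesn2, Zmat3, Eda2r, Fas, Casp8 and Bid were kept under every alternative that tested them, and Fas and Bid were not tested at a limit of 6. Against 10 members called higher, 7 to 11 were called higher with an array left out, and 0 to 1 lower. With probe sets averaged 11 were called higher, with Ccng1, Aen and Bcl2l11 gained and Plk2 and Trp53inp1 lost. The number called lower was 2 with probe sets averaged (Bcl2l1 and Xiap), 1 at a limit of 6 and 1 with arrays centred (Bak1 both times). Whether same-numbered samples are paired is not known, and their deviations correlated at 0.04, -0.12 and -0.23. With the replicate block 6 members were called higher and 1 lower (Bcl2l1), without Plk2, Trp53inp1, Apaf1 and Diablo, and 2557 of 14550 genes in all, against 3198. The share of higher genes among all called was 57.3%, and 49.4% with arrays centred. The median change of the members ran from 0.12 to 0.25 over all alternatives.

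Changes that turned in sign were those of Casp9 (-0.048) and Mcl1 (0.032) with probe sets averaged, and of Polk (-0.048) and Ei24 (-0.00933) with arrays centred. With an array left out, Polk ran from -0.12 to 0.30, Ei24 from -0.048 to 0.18, Bad from -0.22 to 0.067, Birc3 from -0.23 to 0.12, Casp2 from -0.076 to 0.40 and Casp6 from -0.24 to 0.0035. The cause of these differences was not tested. With 3 arrays a group the median SE over the members was 0.18, so small changes could not be told from 0.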
